A study of Picea abies with 36 samples.

Results

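The early response of the Norway spruce (Picea abies) hypocotyl to the cytokinin 6-benzylaminopurine (BAP) was examined in 6 of the 36 RNA-seq libraries of a hormone series: 3 of BAP day 5 and 3 of mock day 5, chosen by their labels. The hypocotyl is the seedling stem below the cotyledons. Seedlings of about 2 weeks received lanolin paste on the middle hypocotyl, with BAP in the treated group and without hormone in the mock, and the treated region was collected after 5 days. Several plants were pooled for each library, the seedlings were wild type (WT) of the material FP-518 TreO G7 Söregärde, and both groups shared the lanolin and the wrapping in foil. The labels and the methods give the BAP dose as 135 mM, whereas 1 legend has µM as the unit, which leaves the dose uncertain. The question of the comparison was which genes of this tissue respond to cytokinin, since the study regarded such genes as poorly described in spruce. For comparison, libraries of IAA day 5 (the auxin indole-3-acetic acid, 50 mM), of BAP+IAA day 5 and of BAP and mock on days 10 and 15 were used, 3 of each.

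Cytokinins are plant hormones derived from adenine. They are perceived at membranes by histidine kinases, and the signal passes through phosphotransfer proteins to response regulators in the nucleus, some of which activate target genes while others, the type A regulators, dampen the response and are themselves induced by the hormone in Arabidopsis. Cytokinins are known for promoting cell division and for keeping cambial cells dividing, and they act against auxin in several steps of vascular development. Their level is set by synthesis and release of the free base, by glucosylation and by degradation through cytokinin dehydrogenases.

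The 6 libraries held 13188942 to 18662252 counts, and 38732 of the 70736 genes of the table passed the filter on low counts and were tested. In log2 CPM, the root mean square distance was 0.353 to 0.433 between libraries of a group and 0.570 to 0.682 between BAP and mock libraries, so the ranges did not overlap. CPM here is the usual depth-scaled count, with the library size adjusted by TMM (trimmed mean of M values). Calls required a log2 fold change beyond 1 in either direction together with an adjusted P (Benjamini-Hochberg) under 0.05 in edgeR's quasi-likelihood F-test of 3 libraries against 3. The spread behind this test was estimated in 1 model of all 36 libraries in 12 groups, not from the 6 libraries alone. Nothing in the labels says that the pools came from separate cultures or sowings, so P values measure the spread between pools of this series.

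After 5 days of BAP, 1177 genes were higher (3.04% of those tested) and 2251 were lower (5.81%), together 8.85%. The changes were mostly moderate, with a median log2 fold change of 1.73 among the higher and -1.64 among the lower genes, and 57.5% and 66.5% of them stayed under 2 on that scale. Above a log2 fold change of 3 lay 261 of the higher and 271 of the lower genes. In CPM, the BAP libraries lay entirely above the mock libraries for 1056 of the higher genes, and entirely below them for 2133 of the lower genes. Over all tested genes, called or not, this held for 16.2% and 19.2%. The 2 directions differed in the mock level at which they occurred. Of the 7949 tested genes with a mock mean under 1 CPM, 6.32% were higher and 2.13% lower, whereas of the 1899 genes at 100 CPM or more in mock, 0.685% were higher and 7.95% lower. The higher genes included 65 without a count in any mock library, and the lower genes included 41 without a count in any BAP library. A gene with few counts can pass the test only through the group where it is high, which bears on these last shares. Mock is also 1 side of the comparison. Sorting by it favours higher calls at low levels and lower calls at high ones, so the shares by level are partly built in. Of the 1177 higher genes 542, and of the 2251 lower genes 1305, were called in each of the 6 fits that left out 1 of these libraries.

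**Figure D1:**
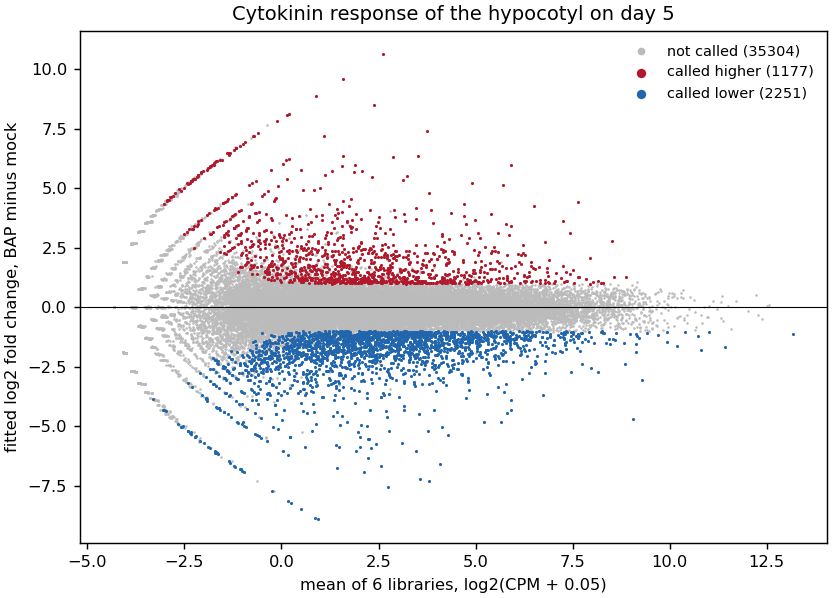
Fitted log2 fold change on day 5 (BAP minus mock, 3 libraries each) against the mean level of the 6 libraries, as log2(CPM + 0.05), for the 38732 tested genes. The 1177 higher genes (red) reach further into the low levels at the left, and the 2251 lower genes (blue) further into the high levels at the right.

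Descriptions of genes were taken from the study's supplementary tables as far as shown here, which list genes that changed in grafts or under IAA. They cover 3589 of the tested genes, 315 (26.8%) of those called higher and 261 (11.6%) of those called lower. Of these described genes, 16.0% were called under BAP, against 8.85% of all tested genes, and their median log2 fold change was 0.21 against -0.02 over all tested genes. Counts of the gene lists below are to be read against these figures. Genes described only through the IAA tables were selected in comparisons that use the same mock libraries, so counts are also given without them where they make up part of a list.

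Of 11 genes with a cytokinin-related description, 10 were tested, 1 was higher, 1 was lower and 8 were not called, with a median log2 fold change of 0.30. Without mock replicate 2 or 3, 2 were higher. Both called genes were described only through the IAA tables, and of the 3 tested genes described elsewhere none was called. Response regulator 1 (MA_23430g0010), a receiver of the phosphorelay, had 1.02, 2.20 and 1.60 CPM in the mock libraries and 3.15, 3.38 and 5.06 CPM under BAP. Each BAP library thus exceeded the mock range (log2 fold change 1.27, SE 0.32, adjusted P = 0.00357). A gene described as LOG3 (MA_12058g0010), which in rice and Arabidopsis releases the active cytokinin base from its nucleotide, moved the other way, from 3.56, 2.86 and 2.37 CPM to 0.293, 0.222 and 0.379 CPM. This fall of 3.27 on the log2 scale (SE 0.45, adjusted P = 3.79e-06) was 1 of the 12 largest among described genes, and the groups lay apart.

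Several genes of cytokinin turnover and signalling were too low for a firm statement on day 5. A cytokinin dehydrogenase 7 (MA_10432877g0010), of the family that degrades the hormone, had no count in the 3 mock libraries and 0.586, 0.166 and 0.316 CPM under BAP, which is at least 5.33-fold higher when 3 counts over the mock group are taken as the floor, but it missed the threshold (adjusted P = 0.0778). The same gene was called higher on days 10 and 15, and on day 5 with DESeq2 or with the replicate number as a block. An ARR9-like response regulator (MA_132682g0010), related to the type A regulators of Arabidopsis, was likewise without a count in mock and at 0, 0.111 and 0.316 CPM under BAP (at least 2.33-fold, adjusted P = 0.0859, called with DESeq2). Cytokinin dehydrogenase 1 (MA_197101g0010) had no count in mock or in BAP replicate 1 and 0.0555 and 0.253 CPM in the other BAP libraries (adjusted P = 0.254). A further ARR9-like gene (MA_184239g0010) had a count in 1 of the 6 libraries and was not tested. A zeatin O-glucosyltransferase-like gene (MA_10435034g0010), whose family stores cytokinins as glucosides, had 1.46, 2.86 and 2.87 CPM in mock and 4.32, 4.55 and 4.68 CPM under BAP, but its log2 fold change of 0.91 (adjusted P = 0.0248) was under the fold threshold, which it passed without mock replicate 2 or 3. The purine permease (MA_10437064g0010), the genes described as histidine kinase 5 (MA_10431701g0010 and MA_263703g0010) and a gene with a histidine kinase-like ATP-binding domain (MA_10436502g0020) had log2 differences between -0.74 and -0.32. None of them was called, and their descriptions do not name them as cytokinin receptors.

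The 12 largest rises among described genes were of varied description. The gene with the largest fitted rise, a 7-deoxyloganetin glucosyltransferase-like gene (MA_101997g0010) of the family that attaches glucose to small molecules, had 0, 0.294 and 0.165 CPM in mock and 12.2, 38.3 and 29.0 CPM under BAP (log2 fold change 7.42, SE 0.65, adjusted P = 6.24e-09). A gene described as N-acyl-D-amino-acid deacylase (MA_100094g0010) rose from 1.40, 1.47 and 2.701 CPM to 42.5, 225.8 and 88.6 CPM, and an AAA-ATPase (MA_10426157g0010) from 0.700, 0.807 and 1.93 CPM to 6.66, 37.8 and 18.5 CPM. In both, BAP replicate 2 was highest and BAP replicate 1 lowest, and the lowest BAP library was still above each mock library.

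An endoglucanase 17-like gene (MA_128094g0010), a cellulose-cleaving enzyme of the cell wall, had 1.15, 16.8 and 35.5 CPM in mock and 396.5, 331.9 and 416.7 CPM under BAP (log2 fold change 4.41, SE 0.69, adjusted P = 2.96e-05). The mock libraries differed widely here, whereas the BAP libraries were close to each other. Gibberellin-regulated 12-like (MA_10298g0010), of a family of small secreted cysteine-rich proteins, rose from 0.445, 2.13 and 2.26 CPM to 12.5, 28.1 and 41.7 CPM. An ethylene-responsive transcription factor 5-like gene (MA_27309g0010) rose from 0, 0.294 and 0.221 CPM to 0.586, 3.66 and 4.99 CPM. An ACC synthase (MA_10425896g0020), the enzyme that makes the ethylene precursor, had 3 counts over the mock libraries and 54 under BAP, a ratio of 18.0 with an exact conditional 95% interval of 5.84 to 89.9. Elongation factor 2 (MA_10285571g0010), a proline-rich gene (MA_10199979g0010), L-lactate dehydrogenase B (MA_10426242g0020) and 2 glutathione S-transferases completed the 12, each with BAP libraries entirely above mock. Among genes without a description, MA_229510g0010 had no count in mock and 8.27, 4.16 and 5.31 CPM under BAP (at least 90.6-fold higher), and MA_385668g0010 none in mock and 3.07, 4.22 and 3.60 CPM under BAP (at least 58.3-fold higher).

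Among the 12 largest falls of described genes was a pair of genes for 9-cis-epoxycarotenoid dioxygenase, which makes the committed cleavage in abscisic acid synthesis. MA_10428505g0010 had 9.29, 9.17 and 8.93 CPM in mock and 0.586, 0.277 and 0.506 CPM under BAP (log2 fold change -4.33, SE 0.54, adjusted P = 8.17e-07). Its neighbour in the gene numbering, MA_10428505g0020, had 1.34, 1.83 and 2.04 CPM in mock and 0.146, 0 and 0 CPM under BAP. Reads shared between such neighbouring genes were not examined.

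A pectinesterase-like gene (MA_648837g0010) and a pectinesterase inhibitor 17-type gene (MA_53377g0010), both acting on the methyl esters of pectin, fell from 4.63 to 17.7 CPM and from 4.26 to 14.6 CPM in mock to 0.512 CPM or less under BAP. Mock replicate 1 was highest in both. A caffeic acid O-methyltransferase (MA_10426580g0010), of the enzymes that methylate lignin precursors, fell from 1.46, 2.35 and 7.44 CPM to 0.220, 0.333 and 0.253 CPM (log2 fold change -3.76, SE 0.89). A gene described as (RS)-norcoclaurine 6-O-methyltransferase (MA_10432987g0020) fell from 1.53, 4.11 and 13.0 CPM to 0.512, 0.444 and 0.822 CPM, and a leucine-rich repeat receptor kinase (MA_10434490g0010) from 2.23, 1.91 and 0.772 CPM to 0.146, 0.111 and 0.126 CPM. The remaining members of this group were laccases and endoglucanases, described with their families below, and LOG3. Without a description, MA_959195g0010 fell from 5.60, 2.94 and 2.65 CPM and MA_913693g0010 from 3.18, 2.72 and 2.32 CPM to no count in any BAP library, at least 58.7-fold and 43.0-fold lower.

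**Figure D2:**
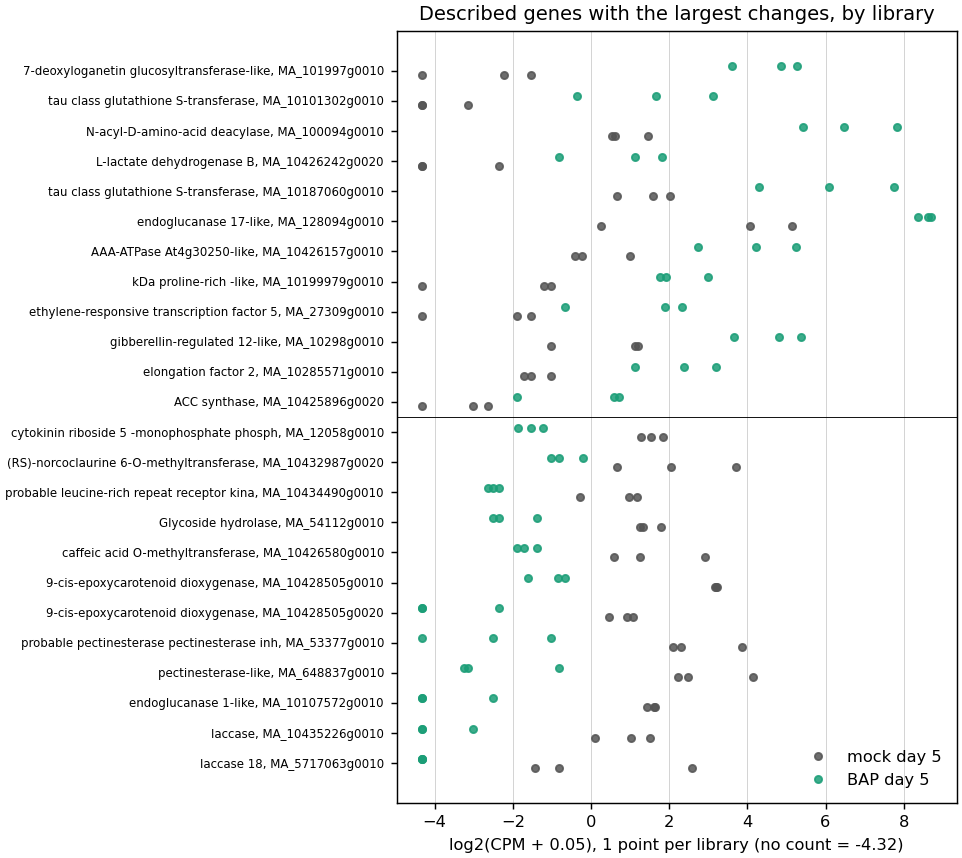
Level of the 12 described genes with the largest fitted rise (upper part) and the 12 with the largest fitted fall (lower part) in each library, as log2(CPM + 0.05), with mock day 5 in grey and BAP day 5 in green. In each of the 24 genes the BAP points lie entirely on 1 side of the mock points, a condition by which the genes were chosen.

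Glutathione S-transferases, enzymes that attach glutathione to reactive or foreign compounds, were called in 1 direction. Of 31 tested members 17 were higher (54.8%) and the other 14 were not called, with a median log2 fold change of 2.19, or 2.13 with the member that lacks counts in 1 group set at its bound. Without the genes described only through the IAA tables, 15 of 27 were higher. Of the 17, 16 are described as tau class, the plant-specific class that includes many stress-induced members. MA_10187060g0010 had 1.53, 2.94 and 4.02 CPM in mock and 19.6, 214.8 and 67.5 CPM under BAP (log2 fold change 5.14, SE 0.73, adjusted P = 8.87e-06). MA_10101302g0010 had 1 count in the 3 mock libraries and 0.732, 8.60 and 3.10 CPM under BAP, a ratio of 214 with an exact conditional 95% interval of 38.0 to 8486. The smallest called rise was that of MA_10434037g0020, from 11.3, 13.8 and 12.6 CPM to 22.6, 38.3 and 30.6 CPM (1.28, SE 0.27). The summed level of the list was 239 to 294 CPM in mock and 357, 859 and 532 CPM under BAP, so BAP replicate 2 stood highest and replicate 1 lowest. The number of higher members lay between 12 and 19 when single libraries were left out. The rise was not particular to BAP. Under IAA on day 5, 22 members were higher than mock and 0 lower, with a median log2 fold change of 3.21. Compared directly, 2 members were higher and 15 lower under BAP than under IAA (median -1.31).

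Laccases, copper oxidases that couple lignin precursors in the wall, were called more often lower than higher. Of 62 tested members of the study's laccase list, 30 were lower, 8 were higher and 24 were not called (61.3% called), with a median log2 fold change of -1.24, the same with members lacking counts in a group set at their bounds. This list was assembled by annotation, and 1 of its entries carries a pectinesterase description and was not called. Summed over the list, mock libraries had 1549, 2784 and 3822 CPM and BAP libraries 1021, 656 and 1080 CPM. The groups did not overlap, but mock replicate 1 lay nearer to the BAP libraries than to mock replicate 3. Between 26 and 32 members were lower, and 8 higher, when single libraries were left out. The fall was not particular to BAP. Under IAA on day 5, 24 members were lower than mock and 9 higher, with a median log2 fold change of -0.69.

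The laccase with the most counts in mock, MA_10435604g0010 (chosen after its values were seen), had 367, 1232 and 1735 CPM in mock and 189, 76.3 and 133 CPM under BAP (log2 fold change -3.07, SE 0.61, adjusted P = 4.84e-04). Laccases that were nearly or fully without counts under BAP included laccase 18 (MA_5717063g0010), with 0.318, 0.514 and 5.95 CPM in mock and none under BAP, at least 40.0-fold lower. MA_10435226g0010 had 1.02, 2.79 and 1.98 CPM in mock and 0.0732, 0 and 0 CPM under BAP. The member of lowest fitted change, MA_132857g0010, had no count in BAP and none in mock replicate 2, and its mean rested on mock replicate 3 with 9.54 CPM. The 8 members that rose did so in each BAP library. MA_829987g0010, described as laccase-5-like, rose from 6.36, 3.30 and 3.97 CPM to 36.8, 13.1 and 32.3 CPM (log2 fold change 2.58, SE 0.55, adjusted P = 8.48e-04), and MA_14717g0010 (chosen after its values were seen) from 46.0, 22.9 and 39.5 CPM to 160.8, 89.4 and 158.4 CPM. In 35 of the 38 called members, 8 of them higher, the BAP libraries did not overlap the mock. Over all called genes this held for 89.7% of the higher and 94.8% of the lower, so it is not particular to laccases. Since the treatment of reads with several alignments is not stated, counts of near-identical laccases are uncertain.

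**Figure D3:**
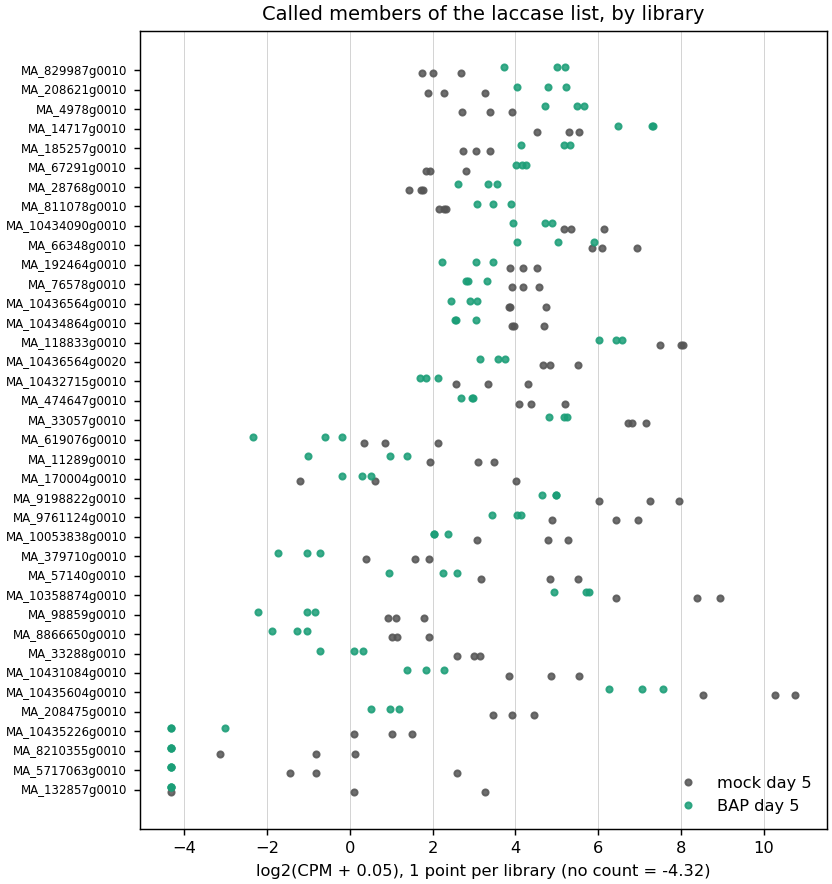
Level of the 38 called members of the laccase list in each library on day 5, as log2(CPM + 0.05), ordered by fitted log2 fold change from the highest (top) to the lowest (bottom). The BAP points (green) lie above the mock points (grey) in the 8 upper genes and mostly below them in the 30 lower ones, and mock replicates are spread widely in several of the latter.

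Genes upstream in lignin synthesis were mostly not called. Of 37 tested phenylpropanoid genes 4 were lower, 1 was higher and 32 were not called (13.5% called), with a median log2 fold change of -0.08, and without the genes described only through the IAA tables, 4 of 28 were lower and 1 was higher. The lower ones included both abundant genes for trans-cinnamate 4-monooxygenase, a hydroxylase at the entry of the pathway. MA_118702g0010 (chosen after its values were seen, like the next gene) fell from 1291, 1273 and 1372 CPM to 628, 631 and 672 CPM (log2 fold change -1.03, SE 0.09, adjusted P = 5.8e-09), with little spread between libraries, and MA_130482g0010 fell from 719, 861 and 911 CPM to 285, 241 and 324 CPM (-1.55, SE 0.19). A low member with the same description, MA_10435536g0010, rose from 0.382, 1.91 and 1.82 CPM to 5.05, 27.8 and 17.4 CPM (3.62, SE 0.81). Summed over the list, mock libraries had 2807 to 3246 CPM and BAP libraries 1499 to 1708 CPM, without overlap. Most of this sum and of its fall came from the 2 abundant genes for trans-cinnamate 4-monooxygenase.

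Of 31 tested flavonoid genes 5 were lower and 2 were higher (22.6% called), with a median of -0.68, and without the genes described only through the IAA tables, 5 of 24 were lower and 1 was higher. The number of lower genes was 11 without BAP replicate 3 and 2 without BAP replicate 1, and that of higher genes fell to 1 or 0 without any 1 of the 6 libraries. Chalcone synthase (MA_10432168g0010, chosen after its values were seen), the entry enzyme of flavonoid synthesis, fell from 26.5, 25.0 and 24.3 CPM to 10.2, 13.98 and 11.9 CPM (log2 fold change -1.07, SE 0.19). A dihydroflavonol 4-reductase (MA_10433570g0010) was the lowest called member (-2.20), and an anthocyanidin reductase (MA_10433569g0010) the highest (1.59), and in both the groups overlapped and the call was lost without BAP replicate 2 or other single libraries.

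Of 74 tested cytochrome P450 genes, 11 were lower and 3 were higher (18.9% called, against 16.0% of all described genes). Without BAP replicate 2, 6 were lower, without mock replicate 3, 7 were lower, and without BAP replicate 1, 6 were higher. Without the genes described only through the IAA tables, 9 of 39 were lower and 1 was higher. Several of the lower ones belong to the fatty acid hydroxylases of the CYP86 family, which act in cutin and suberin synthesis in Arabidopsis. Cytochrome P450 86A22 (MA_10435761g0010) had 345, 163 and 195 CPM in mock and 75.9, 105.8 and 73.0 CPM under BAP (log2 fold change -1.46, SE 0.35), and cytochrome P450 86B1-like (MA_136449g0010) had 136, 63.3 and 71.6 CPM in mock and 13.98, 26.6 and 41.2 CPM under BAP (-1.73, SE 0.34). Cytochrome P450 734A1 (MA_15954g0010), which inactivates brassinosteroids in Arabidopsis, was the lowest called member with 0.881 to 1.49 CPM in mock and 0.222 CPM or less under BAP, a call that was lost without mock replicate 1 or 3 or any 1 of the BAP libraries. A CYP78A5-like gene (MA_10115334g0010), whose Arabidopsis relative promotes organ growth, rose from 0.509, 1.03 and 0.0551 CPM to 3.88, 6.32 and 5.69 CPM. The P450 genes other than 734A1 in these sentences were chosen after their values were seen.

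Beta-1,4-glucanases, pectin methyl esterases and pectin-cleaving lyases each had members called in both directions. Of 23 tested beta-1,4-glucanases 4 were higher and 7 were lower, with a median log2 fold change of -0.45 that became 0 with members lacking counts in a group set at their bounds. Besides the endoglucanase 17-like gene above, endoglucanase 17 (MA_16152g0010, chosen after its values were seen) rose from 22.7, 23.0 and 22.0 CPM to 337, 197 and 308 CPM (log2 fold change 3.64, SE 0.42, adjusted P = 4.66e-07). In contrast, endoglucanase 1-like (MA_10107572g0010) fell from 3.05, 2.64 and 3.03 CPM to 2 counts over the BAP libraries, a ratio of 69.5 with an exact conditional 95% interval of 18.9 to 580, and a glycoside hydrolase of the same list (MA_54112g0010) fell from 3.44, 2.35 and 2.48 CPM to 0.146, 0.333 and 0.126 CPM. Summed over the list, the level was 1228 to 1518 CPM in mock and 2339 to 3004 CPM under BAP, higher in each BAP library although more members fell than rose.

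Of 55 tested pectin methyl esterases, which remove methyl groups from pectin, 6 were higher, 7 were lower and 42 were not called (median -0.40). PaPME5-like (MA_10267810g0010) rose from 11.8, 9.54 and 10.8 CPM to 32.2, 23.0 and 26.9 CPM (log2 fold change 1.35, SE 0.17, adjusted P = 9.44e-07), and probable pectinesterase 53 (MA_10428610g0020) from 0.127, 0.440 and 0.165 CPM to 1.98, 0.666 and 2.40 CPM, a call lost without BAP replicate 3 or mock replicate 1 or 3. Of 32 tested pectate and pectin lyases, which cleave the pectin backbone, 2 were higher and 6 were lower (median -0.30). Probable pectate lyase 8 (MA_10428603g0010) rose from 9.48, 17.2 and 17.2 CPM to 81.1, 52.3 and 92.1 CPM (2.36, SE 0.39), while another gene of that description (MA_10430145g0020) fell from 3.44, 1.39 and 2.04 CPM to 0.512, 0.166 and 0.126 CPM (-3.12, SE 0.71). Of 33 tested expansins and xyloglucan enzymes 3 were lower and the other 30 were not called (9.09% called), with a median of -0.30. Without the genes described only through the IAA tables, 2 of 15 were lower. An expansin described as Os-EXPA2 (MA_104065g0020) fell least, from 3.499, 4.11 and 4.96 CPM to 2.12, 1.39 and 1.83 CPM, a call lost without BAP replicate 2 or mock replicate 3. The lowest was an expansin (MA_114349g0010), a wall-loosening protein, with 0.318, 0.734 and 0.496 CPM in mock and no count under BAP, at least 8.01-fold lower.

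The called cell cycle genes were higher. Of 42 tested members 14 were higher (33.3%) and the other 28 were not called, with a median log2 fold change of 0.85. The 14 include a cyclin-dependent kinase inhibitor SMR4 gene (MA_207601g0010, chosen after its values were seen, log2 fold change 1.45). On day 10, 10 members were higher and 1 lower than mock, and on day 15, 3 and 1. Under IAA on day 5, 35 were higher and 0 lower (median 1.44), so the rise was not particular to BAP. The summed level was 370, 372 and 335 CPM in mock and 583, 503 and 672 CPM under BAP on day 5, without overlap. The called members ranged from 1.00, for a kinesin KIN-14N gene (MA_10432695g0010) with 9.10, 10.6 and 8.27 CPM in mock and 18.2, 15.9 and 21.9 CPM under BAP, to 2.05 on the log2 scale, and 6, 8 and 7 of the list were higher without BAP replicate 3, mock replicate 1 and mock replicate 3. Of the 42 genes 39 were described only through the IAA tables, which were made with the same mock libraries, and of the 3 others none was called. MAD2 genes, which hold mitosis until chromosomes are attached, were the highest called member (MA_11292g0010, 0.509, 0.954 and 0.441 CPM in mock and 2.12, 3.11 and 2.53 CPM under BAP, log2 fold change 2.05, SE 0.35) and, chosen after its values were seen, MA_19675g0010 (11.9, 10.6 and 9.65 CPM against 25.3, 21.3 and 26.1 CPM, 1.18, SE 0.13, adjusted P = 8.4e-08). PaCDKB2;2-like (MA_920994g0010), a mitotic cyclin-dependent kinase that the study uses as a marker of division, was 1 of those 3. It had 80.3, 65.8 and 52.0 CPM in mock and 109.5, 99.7 and 127.2 CPM under BAP, a log2 difference of 0.76 (SE 0.11, adjusted P = 6.83e-06) that was under the fold threshold though all BAP libraries lay above the mock.

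**Figure D4:**
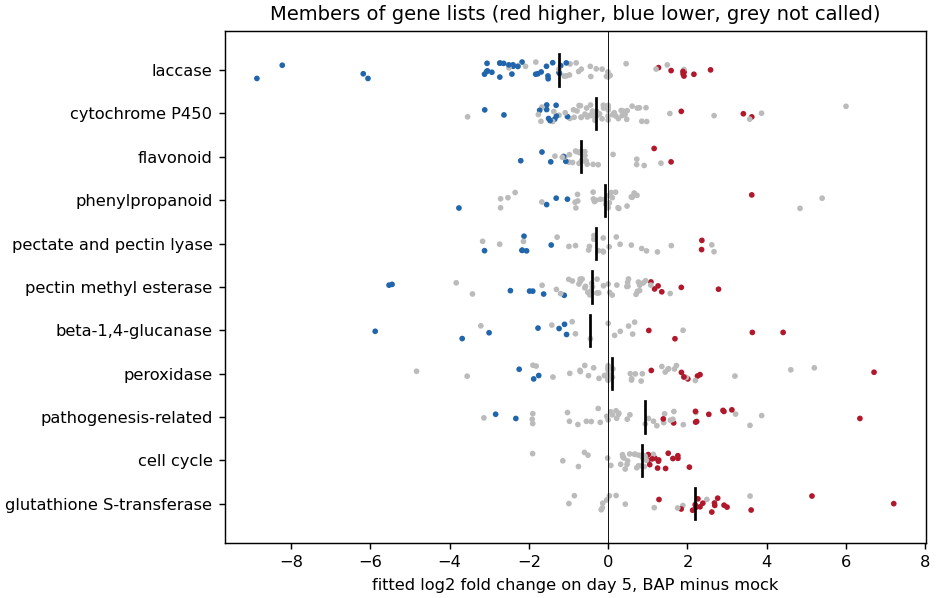
Fitted log2 fold change on day 5 (BAP minus mock) of each tested member of 11 gene lists, with 1 point per gene and a bar at the median of the list. The glutathione S-transferase points lie mostly to the right with a median of 2.19, the laccase points mostly to the left with a median of -1.24, and the wall polysaccharide lists reach to both sides. Points far out in grey are genes with few counts.

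In the defence-related lists, more members were called higher than lower. Of 47 tested genes of the pathogenesis-related list (chitinases, thaumatins and others) 10 were higher and 2 were lower (25.5% called). The median was 0.94, or 0.41 with members lacking counts in a group set at their bounds. Without the genes described only through the IAA tables, 7 of 30 were higher. Without BAP replicate 3, 4 of the 47 were higher, and 3 in a fit on the compared groups alone. The summed level was 396 to 894 CPM in mock and 862 to 1664 CPM under BAP, so the groups overlapped. A PR-4-like gene (MA_10434174g0010, chosen after its values were seen) rose from 29.7, 17.8 and 58.7 CPM to 142, 326 and 458 CPM (log2 fold change 3.12, SE 0.47, adjusted P = 1.67e-05). The member of largest fitted rise, PR-5-like (MA_19953g0020), had 0, 0 and 0.717 CPM in mock and 0.366, 7.16 and 60.3 CPM under BAP, so the groups overlapped and the call was lost without BAP replicate 3. The lowest called member, a PR-10 gene (MA_155137g0010), had 3.05, 0.147 and 11.2 CPM in mock and 0.220, 1.16 and 0.569 CPM under BAP, overlapping groups, and its call was lost without BAP replicate 1 or 3 or mock replicate 3. Of 53 tested peroxidases, haem enzymes of the wall and of defence, 7 were higher and 3 were lower (18.9% called). Their median was 0.11, or 0 with members lacking counts in a group set at their bounds. A fit on the compared groups alone called 3 higher and 1 lower, and without the genes described only through the IAA tables, 4 of 22 were higher and 1 was lower. Peroxidase A2-like (MA_125040g0020) fell from 0.700, 0.807 and 1.21 CPM to 0.146, 0.388 and 0 CPM. Peroxidase 4-like (MA_10432379g0020) was without a count in mock and had 0.146, 0.388 and 1.83 CPM under BAP, at least 12.7-fold higher. Of 22 tested ethylene response factors 4 were higher (18.2% called) and the other 18 were not called. Without mock replicate 1 or 3, 2 were higher, and 1 in the fit on the compared groups alone. The shares called of peroxidases and ethylene response factors were close to the 16.0% of all described genes. Without the genes described only through the IAA tables, 3 of 12 were higher. An ERF5-like member (MA_10031781g0010) had 0.827, 1.03 and 0.662 CPM in mock and 1.02, 5.93 and 5.75 CPM under BAP, where BAP replicate 1 lay within the mock range.

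Few auxin genes were called. Of 52 tested members 1 was higher and 3 were lower, 7.69% against 8.85% of all tested and 16.0% of the described genes, with a median of 0.06. The calls were all among genes described only through the IAA tables, and the 14 others were not called. Without BAP replicate 2 or mock replicate 2, 1 was lower, and without BAP replicate 1 or mock replicate 3, 2 were higher. IAA11 (MA_103160g0010), of the repressors of auxin signalling, had no count in mock and 1.10, 0.277 and 0.316 CPM under BAP, at least 8.33-fold higher, and it was not called by DESeq2. IAA33 (MA_136990g0010) fell from 1.85, 2.28 and 1.27 CPM to 0.952, 0.499 and 0.632 CPM (log2 fold change -1.37, SE 0.44), a call lost without BAP replicate 2 or 3 or mock replicate 1 or 2. Of 33 tested MYB factors 3 were higher and 5 were lower, with 3 lower without BAP replicate 1, and without the genes described only through the IAA tables, 2 of 23 were higher and 5 lower. The lowest (MA_10157944g0010) went from 3.12, 3.01 and 1.93 CPM to 0.220, 0.998 and 0.759 CPM, a call lost without BAP replicate 1. The study's list of graft transcription factors, selected by it on graft libraries, had 61 tested members, 5 higher and 12 lower. The highest, an ethylene-responsive transcription factor 2-like gene (MA_922309g0010), had 0, 0.367 and 0.0551 CPM in mock and 0.586, 1.77 and 0.948 CPM under BAP, a call lost without BAP replicate 2 or mock replicate 1 or 3. A Dof zinc finger gene (MA_56828g0010), of a plant family of transcription factors that includes vascular regulators, fell from 6.94, 8.22 and 10.9 CPM to 1.32, 0.888 and 1.07 CPM (-2.99, SE 0.39, adjusted P = 1.52e-06). On the side of the rises, LOB domain-containing 40-like (MA_75731g0010) went from 0.318, 1.98 and 3.20 CPM to 10.2, 4.33 and 12.01 CPM (2.23, SE 0.44), and PaMYB123-like (MA_10048467g0010), described as a transcription repressor MYB5-like gene, from 0.891, 1.61 and 2.43 CPM to 8.64, 4.05 and 12.1 CPM (2.30, SE 0.38).

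Of 16 genes that the study names, 4 were called on day 5, PaPME5-like and PaMYB123-like (above), PaERF115-like and PaMYB4-like. PaWIP4-like (MA_29238g0010), described as a zinc finger gene, had 8.91, 15.9 and 17.5 CPM in mock and 25.6, 22.0 and 30.1 CPM under BAP, a log2 difference of 0.88 (SE 0.20, adjusted P = 0.00132) that was under the fold threshold and passed it without mock replicate 3. PaERF115-like (MA_10274g0010), a relative of a regeneration factor of Arabidopsis, had no count in mock and 0.146, 0.0555 and 0.759 CPM under BAP, at least 5.00-fold higher (adjusted P = 0.0247). That call rested on 15 counts and was lost without BAP replicate 3 or any 1 of the mock libraries. PaMYB4-like (MA_316475g0010), of the MYB repressors of phenylpropanoid genes, fell from 1.02, 2.94 and 2.54 CPM to 0.439, 0.610 and 0.569 CPM (log2 fold change -1.97, SE 0.47, adjusted P = 0.00238), with no overlap, and on days 10 and 15 its log2 differences were -0.56 and 0.13, not called. PaVND4-like (MA_6777g0010), which the study calls xylem-related, had 26.8, 48.2 and 49.5 CPM in mock and 25.5, 15.6 and 26.4 CPM under BAP. Its log2 difference of -0.89 (SE 0.26, adjusted P = 0.0114) was under the fold threshold and passed it without BAP replicate 3 or mock replicate 1. On days 10 and 15 it was called lower, at -1.47 and -2.14.

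The phloem gene PaAPL-like (MA_201937g0010) had 2.04 to 3.69 CPM in mock and 1.54 to 3.10 CPM under BAP, overlapping ranges (adjusted P = 0.289), so both vascular markers were measured in all 6 libraries, and no markers particular to the hypocotyl are given by the study. In bulk tissue, fewer cells of a type and less RNA per cell cannot be told apart. The remaining named genes (PaWOX13-like, PaWIND1-like, PaPRX66-like, PaPAT1-like, PaLRP1-like, PaLAC1-like, PaKOR1-like and PaPECTIN LYASE-like) had log2 differences between -0.25 and 0.59, adjusted P values of 0.327 or more, and overlapping groups. Of these, PaLAC1-like (MA_75861g0010), a laccase, and PaPRX66-like (MA_10431507g0020), a peroxidase, were called higher on the later days, at 3.17 and 2.97 on day 10 and at 5.68 and 3.57 on day 15.

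Whether the day 5 response was found later was examined with other libraries, those of BAP and mock on days 10 and 15. Against mock of the same day, 4.99% of the tested genes were higher and 7.89% lower on day 10, and 7.00% and 8.19% on day 15. Of the 1177 genes higher on day 5, 780 (66.3%) were also called higher on day 10, 717 (60.9%) on day 15 and 633 (53.8%) on both. Of the 2251 genes lower on day 5, 1775 (78.9%) were lower on day 10, 1633 (72.5%) on day 15 and 1495 (66.4%) on both. Calls in the opposite direction were rare, 1 and 1 gene on day 10 and 4 and 7 genes on day 15. The median log2 fold changes of the higher set were 1.73, 1.62 and 1.62 on days 5, 10 and 15, and those of the lower set -1.64, -1.76 and -1.75. Over all tested genes, the day 5 changes correlated with those of day 10 (Pearson r = 0.695) and day 15 (r = 0.638), across genes that are not independent. Of the 24 described genes above, LOG3 fell by 3.27, 3.51 and 3.31 on the log2 scale on the 3 days, and the 7-deoxyloganetin glucosyltransferase-like gene rose by 7.42, 7.37 and 9.22. The ACC synthase MA_10425896g0020 and the receptor kinase MA_10434490g0010 were called on day 5 and on neither later day.

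The change of the response itself was tested as a difference of differences. Between day 5 and day 10 edgeR called 0 genes, with 2674 genes at an unadjusted P below 0.05 and a smallest adjusted P of 0.118, whereas DESeq2 called 31 higher and 28 lower. Between day 5 and day 15, the response was higher in 269 genes (0.695%) and lower in 215 (0.555%). Those counts depended on single libraries: without BAP day 5 replicate 1 they were 148 and 141, without mock day 5 replicate 3 the former was 148, without BAP day 15 replicate 3 they were 142 and 111, without mock day 15 replicate 3 the former was 170, and without BAP day 15 replicate 2 the latter was 128.

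Among the genes whose response changed were 8 of the laccase list, of which 7 had a lower response on day 15 and were called lower against the mock of that day. MA_10435604g0010 was at 1270, 978 and 1090 CPM in mock of day 15 and at 21.6, 5.85 and 3.35 CPM under BAP, so its log2 fold change went from -3.07 to -6.76 (adjusted P of the difference = 0.020). Laccase-17 (MA_11289g0010) fell from 3.75, 8.44 and 11.1 CPM to 2.56, 0.444 and 1.90 CPM on day 5, and on day 15 it had 6.98 to 12.1 CPM in mock and 0.0616 CPM or less under BAP. Of the 47 tested genes of the pathogenesis-related list, 10 were higher than the mock of the same day on day 5, 21 on day 10 and 31 on day 15. The median log2 fold changes were 0.94, 1.725 and 3.46. By the test of the difference itself, 1 gene of this list had a higher response on day 15. This class IV chitinase (MA_10427514g0010) had 5.54, 4.62 and 60.8 CPM in mock and 124, 60.7 and 153 CPM under BAP on day 5, where the groups met, and 20.4 to 32.5 CPM in mock against 1054, 1375 and 2063 CPM under BAP on day 15. The genes in this paragraph were chosen after their values were seen.

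**Figure D5:**
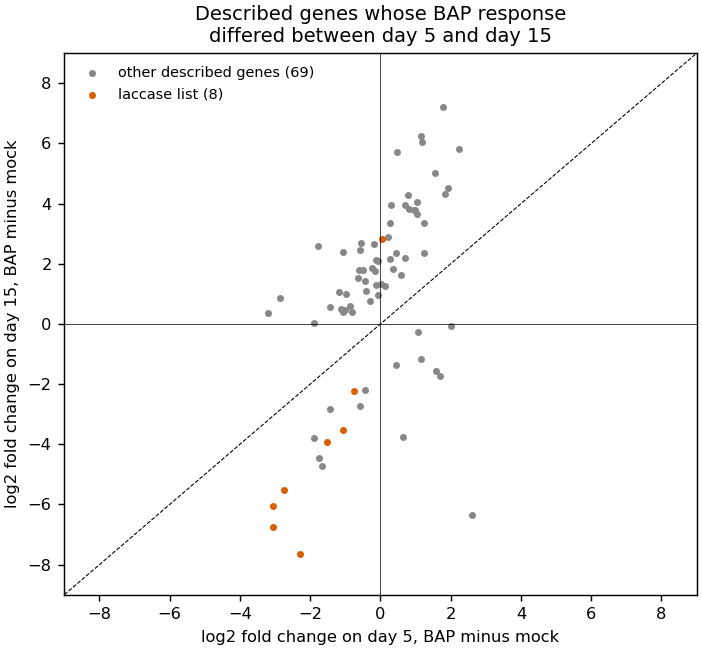
Log2 fold change under BAP on day 15 against that on day 5 for the 77 described genes whose response differed between these days (points off the dashed line of equal change, as the choice requires), with 8 laccases in orange. Of the laccases, 7 lie below the line, more negative on day 15.

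BAP libraries were compared directly with those of IAA on day 5, without the mock. Under BAP 2879 genes (7.43%) were higher than under IAA and 3654 (9.43%) were lower. All lists but heat shock (0.65) had a negative median log2 difference between BAP and IAA, against -0.007 over all tested genes. The lowest medians were -3.25 for the expansins and xyloglucan enzymes, -2.68 for the peroxidases and -2.16 for the pathogenesis-related list. Next came abscisic acid and gibberellin (-1.95), LOB domain (-1.885) and auxin genes (-1.85). These lists of lowest median were partly described through the IAA tables, which rest on the same IAA libraries. For the laccases the median difference was -0.39, with 8 members higher and 20 lower under BAP.

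Genes differed in their side of this comparison. Response regulator 1 (MA_23430g0010) was at 1.02, 1.94 and 1.82 CPM under IAA, below each of the BAP libraries (log2 difference 1.25, SE 0.32, adjusted P = 0.00246). LOG3 (MA_12058g0010) was at 10.7, 11.0 and 7.42 CPM under IAA, above the mock, and so 5.00 lower under BAP on the log2 scale (SE 0.44), and under BAP+IAA it lay between, at 1.18, 1.45 and 1.92 CPM. The 7-deoxyloganetin glucosyltransferase-like gene (MA_101997g0010) had 0.803, 0.352 and 1.33 CPM under IAA and 15.7, 24.8 and 22.8 CPM under BAP+IAA, of which the difference from BAP alone missed the threshold (adjusted P = 0.571). For the endoglucanase 17-like gene (MA_128094g0010) IAA gave 1133, 1325 and 996 CPM, more than BAP (log2 difference -1.59, adjusted P = 0.0426). PaKOR1-like (MA_69345g0010), a membrane-bound glucanase, had 4.71, 9.39 and 10.3 CPM in mock, 9.66, 9.32 and 15.9 CPM under BAP and 156, 211 and 203 CPM under IAA. PaLRP1-like (MA_2299g0010) had 4.17, 2.05 and 4.87 CPM under BAP and 19.5, 24.5 and 17.7 CPM under IAA (log2 difference -2.49, SE 0.32).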

How the data were processed

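RNA of treated hypocotyl segments was sequenced, 3 libraries per hormone and day, 36 in 12 groups. The authors removed ribosomal reads (SortMeRNA), trimmed (fastp), aligned (STAR) to the first-version spruce genome and counted reads per gene on the reverse strand (HTSeq). The deposited values are raw counts per gene, not normalized. The treatment of reads with several alignments is not given in the sources used here, and coordinates and sequences were not used here.

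Counts were tested in R 4.3.3 with edgeR 4.0.16 (TMM scaling, filterByExpr, 1 model of all 12 groups, robust quasi-likelihood F-test). Calls required a log2 fold change beyond 1 in either direction with an adjusted P (Benjamini-Hochberg) under 0.05, and the SE is the absolute log2 fold change divided by the square root of F. All 36 libraries left 24 residual degrees of freedom, and the common biological coefficient of variation was 20.9%. The script was tested on simulated data. Where a group held no count, a fold was bounded with 3 counts over that group, and with 1 to 3 counts the ratio has an exact conditional 95% interval. Bounds and intervals cover counting error only.

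The gene lists, 5 of the study and 22 by keyword in the descriptions of its supplementary tables, and the genes named were chosen with earlier results of these data known. By rule the text names 14 genes of the study (and, added later, PaWIP4-like and PaMYB123-like), the cytokinin list, the 12 described genes with the largest rise and the 12 with the largest fall (called, groups apart, mean of at least 1 CPM in the higher group), 2 of each without a description, and the highest and lowest called member of each list. Others are said to be chosen after their values were seen.

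Alternatives were DESeq2 1.42.0, other size factors, no low-count filter, a replicate block, a fit on the compared groups alone, a test against the fold threshold (TREAT), a stricter adjusted P and leaving out each library.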

Additional observations from a re-analysis of the deposited data

Results flagged for a closer look

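The response to BAP, as the difference from the mock of the same day, was higher on day 15 than on day 5 in 269 genes and lower in 215 genes by edgeR's test of that difference. Of the former, 213 were called against the mock on day 15 and 54 on day 5, and of the latter 200 and 120. Calls of opposite direction on the 2 days were found in 7 and 4 genes. One of them, chosen after its values were seen, was a desiccation-related PCC13-62-like gene (MA_10431585g0010), with 0.318, 0 and 0.772 CPM in mock and 3.51, 0.832 and 2.72 CPM under BAP on day 5, and 1.25 to 3.10 CPM in mock against 0.0616 CPM or less under BAP on day 15. Day of collection and library set cannot be told apart, since each day has its own mock and BAP libraries.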

How the results depend on the processing

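No fitted change of a named called gene turned its sign under the alternatives run. The balance of genes with a higher and a lower response on day 15 turned from 269 to 215 into 148 to 171 without mock day 5 replicate 3 and 78 to 85 at an adjusted P below 0.01. DESeq2 called 627 and 346 genes with a higher and a lower BAP response on day 15, against 269 and 215 by edgeR. The test against a log2 fold change of 1 (TREAT) left 212 higher and 464 lower genes on day 5, 482 found on both later days (2128 otherwise), 60 list members (242 otherwise), 1239 and 1887 genes between BAP and IAA, and 11 and 8 between the days. At an adjusted P below 0.01, 776 genes were higher on day 5. A fit on the libraries of the compared groups alone called 951 higher and 1786 lower genes on day 5. Leaving out single libraries gave 861 to 1310 higher and 1861 to 2173 lower genes on day 5, and 142 to 362 and 111 to 319 genes between days 5 and 15. Whether the replicate numbers pair the samples was not clear, with weak correlations of same-numbered deviations (0.138, 0.016 and 0.174). The deviations of mock replicates 1 and 3 correlated most with those of the BAP library of the same number. Those of mock replicate 2 correlated most with BAP replicate 3 (0.106). With the replicate block, 1209 genes were higher and 2259 lower, 2155 were found on both later days and 247 list members were called, with 2894 and 3770 genes between BAP and IAA and 295 and 222 between the days. Cytokinin dehydrogenase 7 rested on few counts and was called by DESeq2 and with the block but not otherwise on day 5.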

Other observations

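Further families of the described genes had called members. Of 207 tested receptor kinases, 20 were higher and 14 were lower under BAP on day 5. The 16.4% called was close to the 16.0% of all described genes. Without BAP replicate 3, mock replicate 1 and BAP replicate 2, 6, 8 and 13 were higher, and without mock replicate 3, 9 were lower. Without the genes described only through the IAA tables, 13 of 133 were higher and 11 lower. Cysteine-rich receptor kinase 2 (MA_10428525g0010) had no count in mock and 0.439, 0.499 and 0.569 CPM under BAP, at least 7.99-fold higher. Of 82 tested glycosyltransferases 7 were higher and 3 were lower (12.2% called, and 5 lower without mock replicate 2). Among the 51 not described through the IAA tables alone, 3 were higher and 2 lower. A hydroquinone glucosyltransferase-like gene (MA_100190g0010) was the lowest called member at a log2 fold change of -2.53 (edgeR, adjusted P = 2.63e-04). Of 21 tested WRKY factors, 2 were lower (9.52% called, and 1 lower without mock replicate 3). Among the 17 not described through the IAA tables alone, 2 were lower. WRKY75 (MA_10425932g0020) fell from 28.4, 13.6 and 14.7 CPM to 3.66, 5.38 and 7.97 CPM, and WRKY14 (MA_10432914g0010) from 3.37, 2.94 and 6.45 CPM to 1.54, 1.94 and 1.39 CPM. Of 30 tested members of the dirigent list 2 were higher and 3 were lower (16.7% called), as among the 22 not described through the IAA tables alone. A dirigent gene (MA_10434362g0010), of a family that guides the coupling of phenolic radicals, fell from 88.3, 49.2 and 41.5 CPM to 11.5, 15.6 and 21.9 CPM, and a phenylcoumaran benzylic ether reductase (MA_10424g0010) of the same list had 0.294 to 0.441 CPM in mock and 0.805, 6.77 and 0.948 CPM under BAP, a call lost without BAP replicate 2 or any 1 of the mock libraries.

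Of 17 tested abscisic acid and gibberellin genes 2 were higher and 0 lower (11.8% called), with 1 higher among the 4 not described through the IAA tables alone. A gibberellic acid methyltransferase 2-like gene (MA_10432902g0010) rose from 1.59, 1.69 and 3.25 CPM to 6.37, 7.10 and 8.28 CPM. Of 11 tested ethylene genes 1 was higher and 1 was lower (18.2% called), as among the 9 not described through the IAA tables alone. An ACC synthase (MA_10431331g0010) had 1 count over the mock libraries and 0.0732, 0.555 and 1.14 CPM under BAP, and an ethylene-forming enzyme (MA_10435508g0020) had 0.318, 1.54 and 1.82 CPM in mock and 0.586, 0 and 0.126 CPM under BAP. Both calls were lost without BAP replicate 3 or mock replicate 2, among others. Of 16 tested LOB domain genes 3 were higher and 2 were lower (31.2% called), with 3 higher and 1 lower among the 14 not described through the IAA tables alone. LOB domain-containing 15 (MA_12160g0010) went from 0.700, 1.03 and 1.32 CPM to 0.659, 0.166 and 0.0632 CPM, a call lost without BAP replicate 2 or 3 or mock replicate 3. Of 40 tested transporters 0 were higher, 2 were lower and 38 were not called. The 5.0% called lay below the 8.85% of all tested and the 16.0% of described genes. Among the 23 not described through the IAA tables alone, 1 was lower. The sugar carrier C-like gene MA_10436649g0010 had 0.191, 1.03 and 0.386 CPM in mock and no count under BAP (at least 8.01-fold lower, lost without mock replicate 2), and the NRT1/PTR family gene MA_24116g0010 had 1.21, 8.07 and 12.6 CPM in mock and 1.24, 0.277 and 1.14 CPM under BAP, overlapping groups. Of 8 tested terpene synthases 0 were higher and 1 was lower (12.5% called), as among the 5 not described through the IAA tables alone. This sesquiterpene synthase (MA_10025722g0010) had 2.57 to 2.92 CPM in mock and 0.499 to 0.759 CPM under BAP, a call lost without any 1 of the 6 libraries.

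The heat shock list had a summed level of 2604 to 3435 CPM in mock and 3839 to 4994 CPM under BAP, without overlap. Yet of its 47 tested members 3 were higher and 2 were lower (10.6% called), as among the 45 not described through the IAA tables alone. Between 0 and 6 were higher when single libraries were left out (0 without BAP replicate 2 or 3, 1 without mock replicate 1 or 3, and 6 without BAP replicate 1 or mock replicate 2). Its highest called member, heat shock 83 (MA_10861g0010), had 5.09, 12.4 and 5.68 CPM in mock and 10.5, 27.0 and 23.6 CPM under BAP, overlapping groups, and the lowest, a class I heat shock gene (MA_106915g0010), fell from 2.16, 2.79 and 1.98 CPM to 1.02, 0.888 and 0.569 CPM.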
